A study of Mus musculus with 12 samples.

Results

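The 9 genes described here belong to antigen presentation by major histocompatibility complex (MHC) class II, and their RNA was measured in lung lymphatic endothelial cells (LECs) of mice breathing cigarette smoke (CS) or room air (RA). They are the class II chain genes H2-Aa, H2-Ab1 and H2-Eb1, the peptide editor genes H2-DMa and H2-DMb1, the invariant chain gene Cd74, the class II transactivator gene Ciita, and the costimulatory ligand genes Cd80 and Cd86. They were chosen by symbol, as 9 of the 52636 gene identifiers in the count files, and all 9 passed the filter on low counts that left 21440 genes for testing. Ptprc, the gene of the leukocyte surface protein CD45, was taken as the reference for RNA of leukocytes.

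MHC class II molecules are pairs of an alpha and a beta chain that carry peptides of engulfed proteins to the cell surface, where CD4+ T cells read them. The invariant chain CD74 fills the groove of a new pair on its way to the endosome, where cathepsins trim it, and the H2-DM heterodimer then exchanges the last fragment for a peptide. CIITA switches the class II genes on, while CD80 and CD86 bind CD28 on the T cell. B cells, dendritic cells and macrophages carry this machinery at high levels, and LECs are known to carry it at lower levels and to gain it under interferon gamma.

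RNA was sequenced from LECs of Prox1-EGFP mice, in which regulatory sequence of the lymphatic transcription factor gene Prox1 drives a green fluorescent protein, in 2 acute RA, 2 acute CS, 3 chronic RA and 5 chronic CS libraries. All groups carry the reporter, and all cells were sorted as live, CD31 positive and EGFP positive, with the epithelial marker EpCAM and a cocktail of hematopoietic lineage markers selected against. Acute exposure lasted 8 weeks and chronic exposure at least 24 weeks by the study's methods, whereas the labels give the age of the acute animals as 8 weeks and call the chronic ones aged. By a figure legend of the study, exposure began only when the mice were several weeks old, so that 8 weeks cannot be their age at harvest. Each acute library pooled 2 to 5 mice and each chronic library held 1 mouse, so that the exposure time, the age and the pooling cannot be told apart. Libraries are named by their group and by the sex (F or M) and number in their labels, and each acute group has 1 female and 1 male library.

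The libraries held 18821438 to 56998590 counts, and a floor of 3 counts corresponded to between 0.0526 and 0.159 CPM. Levels are given as CPM, counts divided by the library size in megacounts after scaling by edgeR's TMM factors, and as FPKM, which is CPM per kilobase of exon, where genes are compared with each other. The LEC marker Prox1 lay between 1042 and 2476 CPM and its fellow marker Flt4 between 1159 and 4513 CPM. Both were present in every library and lowest in the acute CS libraries, and Ccl21a, whose near-identical copies make its level uncertain, stayed at or below 1.06 CPM. The summed level of 8 LEC markers exceeded that of 10 blood endothelial markers in every library except acute CS F, where the sums were 6485 and 7504 CPM. In the RA libraries most of the blood endothelial sum was Plvap, at 2127 of 2642 CPM in acute RA F and 3053 of 3489 CPM in acute RA M. Plvap lay between 1704 and 3053 CPM over the 12 libraries, so that the sum is a poor measure of blood endothelial RNA.

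Class II promoters are known for an X box and a Y box at a fixed spacing, which bring CIITA to the gene through the RFX and NF-Y factors. RefSeq promoter windows of GRCm38.p6, 250 bases before to 50 after a start, were found by symbol for 5 of the 9 genes, and not for H2-Ab1, Cd74, Ciita and Cd86. The letters of an X box core (GCAAC) followed on the same strand, 20 to 36 bases further on, by those of a Y box core (ATTGG) were searched on both strands. Stretches of 3 of these promoters are shown, those that hold this layout when the second base of the X core is left free, with the X and Y cores in capitals and each written 5′ to 3′ on the strand of its gene:
H2-Aa, chr17:34287859-34287912, minus strand: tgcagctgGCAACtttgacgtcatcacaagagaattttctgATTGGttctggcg
H2-Eb1, chr17:34305768-34305820, plus strand: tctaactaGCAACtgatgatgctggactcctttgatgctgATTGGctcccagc
H2-DMb1, chr17:34153089-34153142, plus strand: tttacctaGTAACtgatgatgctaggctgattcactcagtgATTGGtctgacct
The pair stood in the windows of H2-Aa and H2-Eb1, with 28 and 27 bases between the cores, and in 284 of 32851 windows of all genes (0.865%) on one strand or the other. With the second base of the X core left free (GNAAC), a widening made after the H2-DMb1 window had been read, the pair also stood in H2-DMb1 with 28 bases between the cores and in 2.85% of all windows. The windows of H2-DMa and Cd80 held neither form. They begin at 34122582 and 34125268 for H2-DMa and at 38458683 for Cd80, inside the GENCODE spans of these genes given below. Starts further upstream were thus not searched for these 2 genes. The H2-DMb1 stretch also lies within the span of its gene. Of 4 further class II genes with a window, H2-Oa, H2-Ob and H2-Eb2 held the first form and H2-DMb2 did not.

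The class II chain genes lie side by side on mouse chromosome 17 (GRCm38), H2-Aa from 34282744 to 34287823 on the minus strand, H2-Ab1 from 34257689 to 34269419 on the plus strand and H2-Eb1 from 34305867 to 34316674 on the plus strand. H2-DMa (34119541 to 34139101) and H2-DMb1 (34153072 to 34160230) lie on the plus strand of the same chromosome. Ciita (10480059 to 10528418, plus strand), Cd80 (38455561 to 38496335, plus strand) and Cd86 (36603869 to 36666081, minus strand) lie on chromosome 16, and Cd74 (60803848 to 60812652, plus strand) on chromosome 18.

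In LECs of mice kept in room air the class II chain genes and Cd74 stood above the leukocyte gene Ptprc, which was at 0.675 to 1.10 FPKM in the 5 RA libraries. Ptprc has 18313 exon bases, the most of the genes compared here, which lowers its FPKM. The other general leukocyte markers were all higher there, from 2.11 FPKM (Rac2, acute RA F) to 12.4 FPKM (Coro1a, chronic RA F). Per kilobase of exon, Cd74 led with 145 ± 54.5 FPKM (SD, n = 5 RA libraries), followed by H2-Ab1 with 77.5 ± 25.6 FPKM, H2-Eb1 with 37.3 ± 10.8 FPKM and H2-Aa with 23.5 ± 6.51 FPKM. The 2 genes of the peptide editor came next, H2-DMb1 with 11.04 ± 3.95 FPKM and H2-DMa with 4.68 ± 1.19 FPKM. Cd74 was exceeded in FPKM by few genes, with 98.5% of the tested genes below it. Ciita stood at 0.860 ± 0.480 FPKM, Cd86 at 0.293 ± 0.0775 FPKM and Cd80 at 0.115 ± 0.0744 FPKM, the last with 13.6% of tested genes below it. Each gene in this order was above the next within all 5 RA libraries, except that Cd86 was above Cd80 in 4 of 5. Over the libraries the ranges of neighbours overlapped, apart from those of H2-DMb1 against H2-DMa and H2-DMa against Ciita.

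After acute CS the 3 chain genes, both editor genes and Cd74 rose, whereas the values of Ciita, Cd80 and Cd86 were higher without passing the test. H2-Ab1, which encodes the beta chain of the I-A molecule, was counted at 149 and 125 CPM in acute RA F and M and at 883 and 297 CPM in acute CS F and M. H2-Aa, its alpha chain partner, was counted at 73.9 and 54.9 CPM in acute RA and at 481 and 185 CPM in acute CS. H2-Eb1, the beta chain of I-E, was counted at 62.6 and 45.8 CPM in acute RA and at 364 and 128 CPM in acute CS. In each of these genes both acute CS libraries lay above both acute RA libraries, and acute CS F lay 2.60 to 2.98 times above acute CS M. The fold changes were 4.29 for H2-Ab1, 5.17 for H2-Aa and 4.53 for H2-Eb1, or on the log2 scale 2.10 ± 0.45 (SE, adjusted p = 0.0264), 2.37 ± 0.49 (adjusted p = 0.0249) and 2.18 ± 0.50 (adjusted p = 0.0358). Tests were those of edgeR (quasi-likelihood F), and p-values were adjusted across all tested genes after Benjamini and Hochberg. Since these are bulk samples, a change in the cells that hold a transcript and a change in the RNA per cell cannot be told apart.

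Cd74, the invariant chain gene, was counted at 155 and 168 CPM in acute RA F and M, and at 1945 and 504 CPM in acute CS F and M. The groups did not overlap, and acute CS F was 3.86 times above acute CS M. The rise was 7.59-fold, or 2.92 ± 0.55 (SE) on the log2 scale (edgeR, adjusted p = 0.0166). The editor genes moved with it. H2-DMa was counted at 12.6 and 11.8 CPM in acute RA against 112 and 57.5 CPM in acute CS, with a fitted log2 change of 2.80 ± 0.45 (SE, adjusted p = 0.00866). H2-DMb1 was counted at 11.2 and 13.3 CPM in acute RA against 119 and 56.7 CPM in acute CS, with a fitted log2 change of 2.85 ± 0.57 (SE, adjusted p = 0.0214). Reads of H2-DMb1 are uncertain, because the neighbouring H2-DMb2 is near-identical, and 313 exon bases of H2-DMa overlap the abundant gene Brd2 on the opposite strand, which a kit that does not mark strand cannot separate.

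Ciita was counted at 5.10 and 3.58 CPM in acute RA F and M and at 49.4 and 12.9 CPM in acute CS F and M. An exon stretch of 127 bases of Ciita overlaps Dexi on the opposite strand, so that reads there cannot be assigned without strand. The groups did not overlap, but the log2 change of 2.84 ± 1.12 (SE) did not pass (adjusted p = 0.234). Cd80 was counted at 0.422 and 0.454 CPM in acute RA, or 25 and 24 counts, and at 4.59 and 1.302 CPM in acute CS, or 234 and 60 counts. Cd86 was counted at 1.42 and 1.29 CPM in acute RA and at 6.65 and 2.89 CPM in acute CS. Neither passed, with log2 changes of 2.74 ± 1.46 (SE, adjusted p = 0.416) and 1.82 ± 1.33 (adjusted p = 0.608), although both acute CS libraries lay above both acute RA libraries in each. Ptprc rose from 19.8 and 19.6 CPM in acute RA to 285 and 154 CPM in acute CS, with a fitted log2 change of 3.48 ± 0.61 (SE, adjusted p = 0.0121). This call held in 15 of 19 alternatives. It was lost with blocks of libraries of the same time, sex and number (log2 change 3.37, edgeR adjusted p = 0.0743). It was also lost without acute RA F, without acute RA M and without acute CS F, where the log2 changes were 3.48, 3.44 and 2.97.

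**Figure D1:**
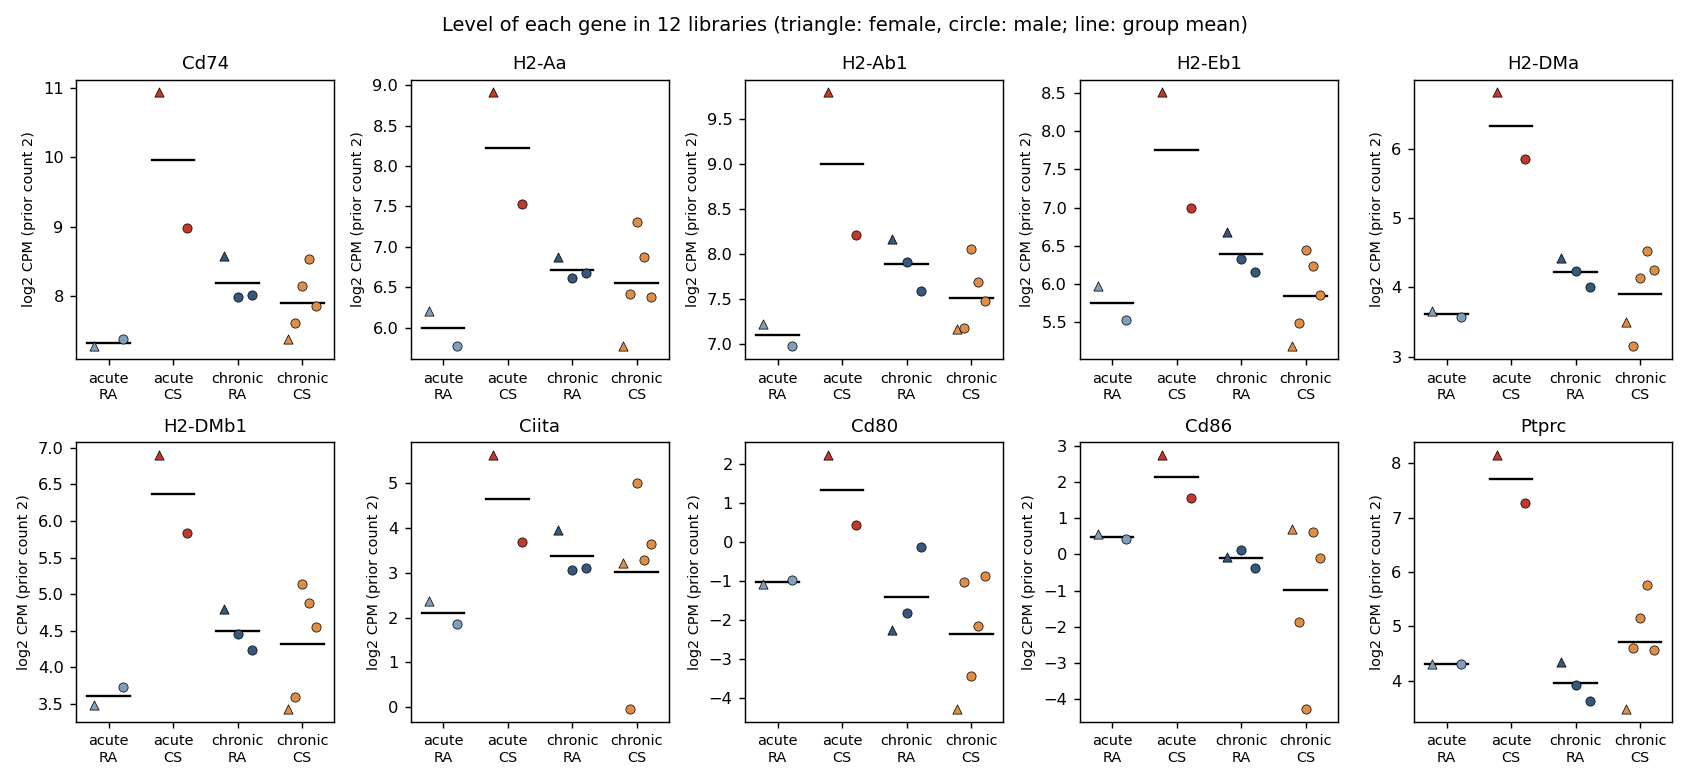
Level of each of the 9 genes and Ptprc in 12 libraries, in log2 CPM with a prior count of 2, with 1 panel per gene and its own vertical axis. Triangles are female and circles male libraries and lines are group means: acute CS F is the highest library in every panel, and acute CS M lies above both acute RA libraries in every panel.

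In all, 6 of the 9 genes were called higher after acute CS, against 2.75% of the 21440 tested genes, and none was called lower, against 0.723% of tested genes. The median log2 fold change of the 9 genes was 2.74, against 0.04 for all tested genes. In level, all 9 genes were higher in both acute CS libraries than in both acute RA libraries, which 27.4% of tested genes also were. With DESeq2 in place of edgeR 7 of the 9 passed, Ciita being added with an adjusted p of 0.0450, against 7.44% of the genes it tested. The calls rested on few libraries: none of the 9 genes passed without acute RA F, without acute RA M or without acute CS F, and 6 passed without acute CS M. They were also lost when only the 4 acute libraries were fitted, where the adjusted p of the 6 genes lay between 0.0709 and 0.152. The call of H2-Eb1 was also lost with sex as a covariate (adjusted p = 0.05255) and without chronic RA F, M1 or M2 or chronic CS M4, where 5 of the 9 genes passed. The direction did not depend on acute CS F, since without it the log2 fold changes of the 6 genes were 1.11 (H2-Ab1) to 2.24 (H2-DMa). Within each sex, the log2 CPM of the 6 genes was higher in CS by 2.54 to 3.65 in females and by 1.24 to 2.28 in males.

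**Figure D2:**
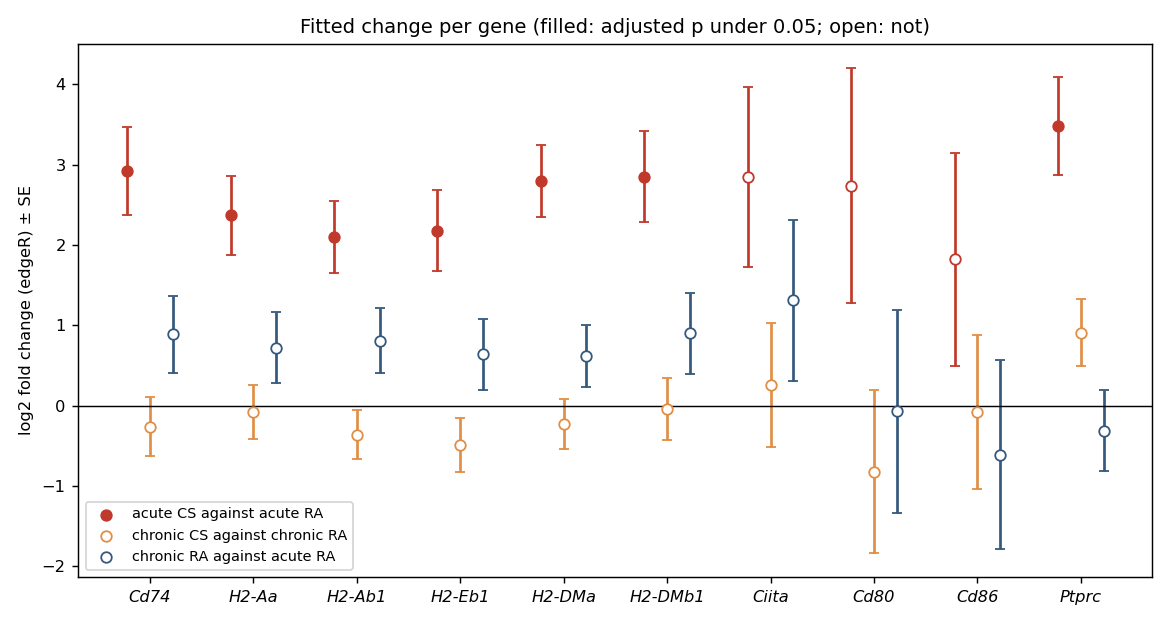
Fitted log2 fold change (edgeR, with standard error bars) of the 9 genes and Ptprc in 3 comparisons; the last pair of comparisons shares the chronic RA libraries and the first and last share the acute RA libraries. Filled points passed an adjusted p of 0.05 and occur in the acute comparison only, for H2-Aa, H2-Ab1, H2-Eb1, H2-DMa, H2-DMb1, Cd74 and Ptprc.

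Summed markers of several other cell types were also higher after acute CS. Those of alveolar type 2 epithelium were higher in acute CS F only. Calls in these lists stand against 2.75% of all tested genes called higher and 0.723% called lower. The summed level of 8 pan-leukocyte markers was 114 to 207 CPM across the RA libraries and 2358 and 1675 CPM in acute CS F and M, and all 8 were called higher. The summed level of 8 B cell markers was 6.51 and 14.1 CPM in acute RA F and M and 177 and 26.1 CPM in acute CS F and M. None of the 8 was called, and the B cell gene Ms4a1 (0.355 and 1.32 CPM in acute RA, 23.8 and 5.42 CPM in acute CS) was far higher in acute CS F than in M. The ratio of acute CS F to acute CS M was 18.4 for the alveolar type 2 sum, 6.81 for the B cell sum and 3.19 for the sum of the 9 genes. It was 2.15 for monocyte and interstitial macrophage markers, 1.41 for the pan-leukocyte sum and 1.38 for dendritic cell markers without Zbtb46. Blood endothelial markers had a ratio of 1.18, alveolar macrophage markers without Mrc1 of 1.01, LEC markers of 0.660 and T cell markers of 0.383.

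Of 10 dendritic cell markers 2 were called higher and 1 lower after acute CS. Itgax, which alveolar macrophages also carry, was counted at 0.760 and 0.832 CPM in acute RA and 83.0 and 55.0 CPM in acute CS, and Ccr7, the chemokine receptor of migrating dendritic cells that T and B cells carry too, at 14.6 and 2.80 CPM and then 79.4 and 61.5 CPM. Of the members that were not called, Flt3 and Xcr1 stayed at or below 4.004 CPM in these 4 libraries, Itgae was at 1.01 and 0 CPM and then 8.70 and 29.7 CPM, and Cd209a reached 20.7 CPM in acute CS F and 1.11 CPM in acute CS M. Zbtb46, a transcription factor of dendritic cells that endothelial cells express as well, fell from 266 and 259 CPM to 164 and 137 CPM. The sum of the list without Zbtb46 was 33.5 and 12.3 CPM in acute RA and 227 and 164 CPM in acute CS. Monocyte and interstitial macrophage markers summed to 73.9 and 61.4 CPM in acute RA and to 617 and 287 CPM in acute CS, and 1 of 10 was called higher. Of 10 alveolar macrophage markers 1 was called higher and 1 lower, the latter Mrc1, which LECs express too (663 and 632 CPM in acute RA, 265 and 411 CPM in acute CS). Without Mrc1 the list summed to 114 and 52.0 CPM in acute RA and to 1900 and 1882 CPM in acute CS, and T cell markers to 31.2 and 25.1 CPM and then 130 and 338 CPM. Of the T cell markers 5 of 8 were called higher. Epithelial markers of the alveolar type 2 cell, which can carry class II genes too, summed to 883 and 1241 CPM in acute RA and to 6235 and 340 CPM in acute CS F and M. Blood endothelial markers summed to 2642 and 3489 CPM in acute RA and to 7504 and 6335 CPM in acute CS F and M, and 8 of 10 were called higher, with a median log2 fold change of 3.43. Among them Vwf, the gene of von Willebrand factor, rose from 53.1 and 39.0 CPM to 1074.5 and 1829 CPM (edgeR, adjusted p = 0.00258). Plvap alone held 2127 and 3053 CPM of the acute RA sums and 2719 and 3006 CPM of the acute CS sums. The 8 LEC markers had a median log2 fold change of -1.05, with 3 called lower. The part of any of these cells in the class II levels was not tested.

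**Figure D3:**
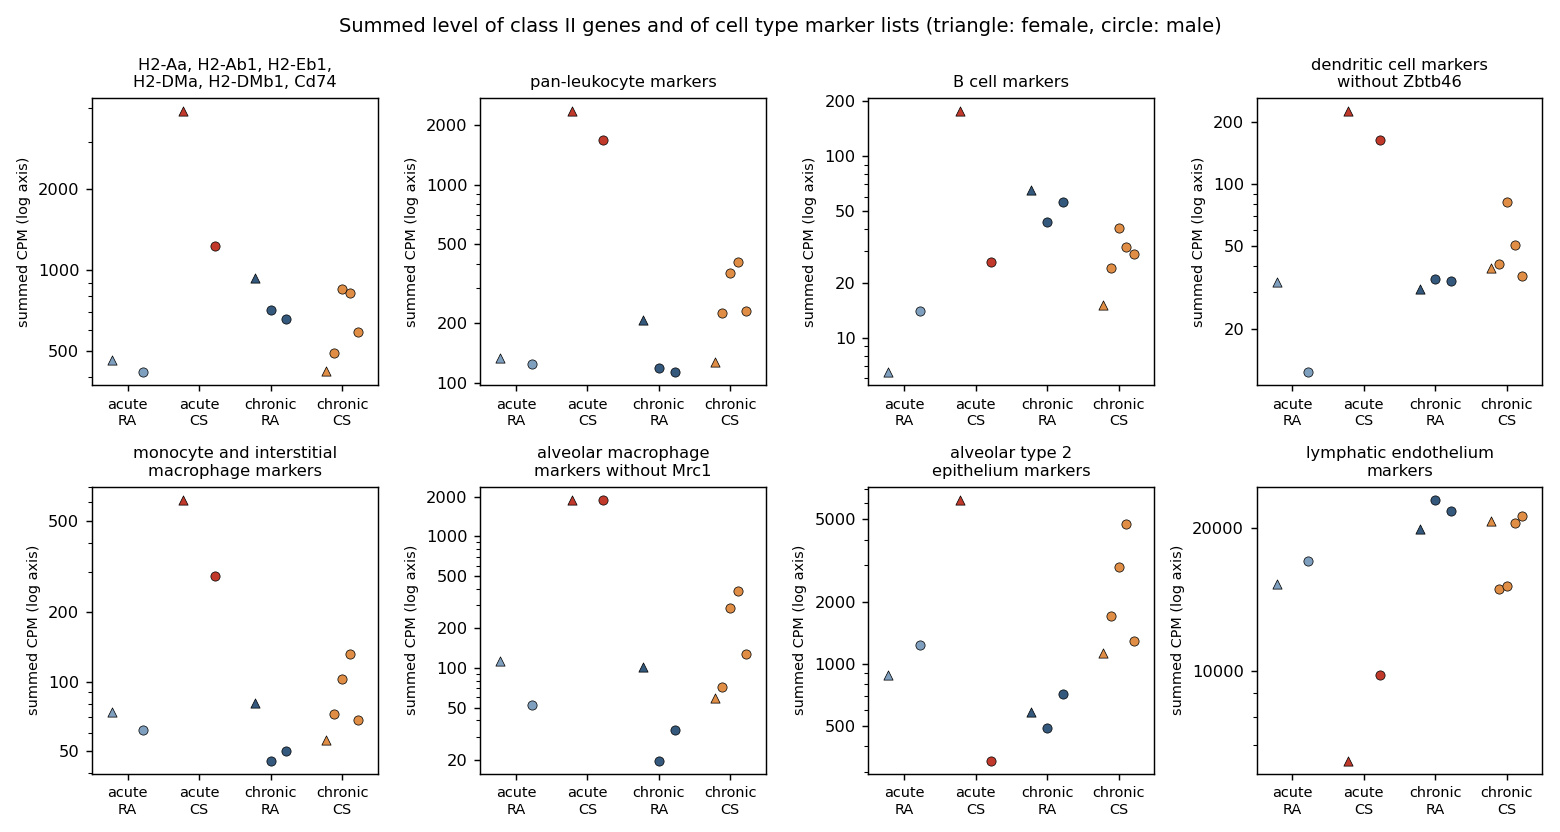
Summed CPM (log axis) of H2-Aa, H2-Ab1, H2-Eb1, H2-DMa, H2-DMb1 and Cd74 and of 7 cell type marker lists in 12 libraries, with 1 point per library. The class II sum was 3905 CPM in acute CS F and 1228 CPM in acute CS M, against 419 to 939 CPM in the 5 RA libraries. The ratio of acute CS F to acute CS M was 18.4 in the alveolar type 2, 6.81 in the B cell and 2.15 in the monocyte and interstitial macrophage markers. It was 1.41 in the pan-leukocyte markers, 1.38 in dendritic cell markers without Zbtb46, 1.01 in alveolar macrophage markers without Mrc1 and 0.660 in LEC markers.

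After chronic CS none of the genes passed the test, and in level the groups overlapped for each of them. H2-Ab1 was counted at 286, 240 and 193 CPM in chronic RA F, M1 and M2 and at 143, 144, 265, 206 and 177 CPM in chronic CS F and M1 to M4. H2-Aa was counted at 117, 97.9 and 102 CPM in chronic RA and at 54.4, 85.6, 159, 118 and 83.2 CPM in chronic CS. H2-Eb1 was counted at 103, 80.4 and 70.9 CPM in chronic RA and at 36.1, 44.8, 87.5, 75.4 and 57.6 CPM in chronic CS. Chronic CS F was the lowest of the 5 in all 3 genes and chronic CS M2 the highest. On the log2 scale the changes were -0.36 ± 0.31 for H2-Ab1 (SE, adjusted p = 0.699), -0.08 ± 0.34 for H2-Aa (adjusted p = 0.954) and -0.49 ± 0.34 for H2-Eb1 (adjusted p = 0.626).

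Cd74 was counted at 383, 254 and 260 CPM in chronic RA and at 166, 196, 285, 371 and 232 CPM in chronic CS F and M1 to M4. H2-DMa was counted at 21.5, 18.8 and 16.1 CPM in chronic RA and at 11.3, 8.85, 17.5, 22.97 and 19.0 CPM in chronic CS, and H2-DMb1 at 27.7, 21.7 and 18.8 CPM and then 10.7, 11.97, 35.3, 29.3 and 23.3 CPM. Chronic CS F and M1 were the lowest of the chronic CS libraries in these 3 genes. Ciita was counted at 15.4, 8.32 and 8.55 CPM in chronic RA and at 9.30, 0.925, 32.0, 9.76 and 12.5 CPM in chronic CS. In M1, where Ciita was at 21 counts, H2-Ab1 and Cd74 still stood at 144 and 196 CPM. Cd80 was counted at 5, 8 and 29 counts in chronic RA and at 0, 10, 1, 8 and 22 counts in chronic CS. Cd86 was counted at 29, 36 and 24 counts in chronic RA and at 30, 5, 0, 70 and 39 counts in chronic CS. These low counts leave a change in either ligand gene hard to detect, with standard errors of 1.01 for Cd80 and 0.96 for Cd86 on the log2 scale.

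None of the 9 genes was called in the chronic comparison, none had an unadjusted p under 0.05 in edgeR, and DESeq2 called none. The share of all tested genes called higher was 0% in edgeR, and DESeq2 called 2.91% of the genes it tested in either direction. The median log2 fold change of the 9 genes was -0.23, with Ciita the only positive one (0.26, standard error 0.77), against 0.01 for all tested genes. An interval of 2 standard errors on each side ran from -0.98 to 0.26 for H2-Ab1, from -0.82 to 0.74 for H2-DMb1 and from -0.85 to 0.38 for H2-DMa. For these 3 genes the value fitted after acute CS lay above the interval, whereas the interval of Cd86, with an upper bound of 1.84, held its acute value of 1.82. No member was higher, or lower, in every chronic CS library than in every chronic RA library, as 3.92% and 5.49% of tested genes were. Over the same libraries Ptprc was counted at 20.2, 15.1 and 12.4 CPM in chronic RA and at 11.1, 24.2, 35.7, 54.3 and 23.7 CPM in chronic CS, with a fitted log2 change of 0.91 ± 0.42 (SE, adjusted p = 0.463). Pan-leukocyte markers had a median log2 fold change of 0.86, T cell markers of 1.25, dendritic cell markers of 1.16, monocyte and interstitial macrophage markers of 1.13, alveolar macrophage markers of 1.91, alveolar type 2 markers of 2.34, blood endothelial markers of 0.67, LEC markers of -0.21 and B cell markers of -0.99, with none called in any of these lists. The B cell sum was 43.4 to 65.6 CPM in chronic RA and 15.2 to 40.2 CPM in chronic CS.

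The acute and the chronic change were compared directly by their difference in the same fit. The difference passed for H2-DMa, with a log2 value of 3.03 (SE 0.53, adjusted p = 0.0406), and so for 1 of the 9 genes, against 0.401% of tested genes called higher in this contrast. For H2-Aa, H2-Ab1, H2-Eb1, H2-DMb1 and Cd74 the differences were 2.45 to 3.18 with adjusted p between 0.0657 and 0.104. The call of H2-DMa was lost without any 1 of 8 libraries (acute RA F and M, acute CS F, chronic RA F, M1 and M2, chronic CS F and M4), while 5 genes passed without acute CS M.

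The room air controls of both times were also compared. H2-Aa, H2-Ab1, H2-Eb1, H2-DMa, H2-DMb1, Cd74 and Ciita were each higher in all 3 chronic RA libraries than in both acute RA libraries, which 17.7% of tested genes also were. Cd86 was lower in all 3 (0.909, 1.04 and 0.715 CPM) than in both acute RA libraries (1.42 and 1.29 CPM), as 17% of tested genes were, and Cd80 overlapped. The log2 fold changes of the first 6 genes were 0.62 to 0.90 with standard errors of 0.39 to 0.50, and that of Ciita was 1.31, with an interval of 2 standard errors from -0.69 to 3.31. None passed in edgeR, whose share of all tested genes called higher was 0%, and none of the 9 had an unadjusted p under 0.05. DESeq2 called none of the 9. Ptprc did not pass either, with a log2 fold change of -0.31 (standard error 0.50). B cell markers had a median log2 fold change of 2.70, all 8 positive, alveolar type 2 markers one of -0.96, alveolar macrophage markers -0.63, monocyte and interstitial macrophage markers -0.55 and LEC markers 0.51, and the other 4 lists lay between -0.16 and 0.31, with no marker called. This comparison shares its libraries with both exposure comparisons.

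The genes were also set against Ptprc within the same library, a ratio that was lower in both acute CS libraries for 88.7% of all tested genes. For Cd74 there were 7.83 and 8.55 counts per count of Ptprc in acute RA F and M and 6.84 and 3.27 in acute CS F and M. In chronic RA F, M1 and M2 there were 19.0, 16.8 and 20.98, and in chronic CS F and M1 to M4 there were 14.9, 8.13, 7.99, 6.84 and 9.82. For H2-Ab1 the ratios were 7.55 and 6.39 in acute RA, 3.10 and 1.93 in acute CS, 14.2, 15.9 and 15.6 in chronic RA, and 12.8, 5.95, 7.42, 3.79 and 7.48 in chronic CS. Neither gene had overlapping groups at either time, and chronic CS F, in which Ptprc was lowest, came nearest to the controls.

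In the acute libraries all 9 genes had a lower ratio in both CS libraries, a share near that of all tested genes (88.7%). The log2 ratio fell by a median of 1.05 for the 9 genes and by 3.36 for all genes. At both times such a median combines the genes' own change with that of Ptprc (log2 change of 3.48 after acute CS). It is therefore no result apart from the fold changes above. Each acute comparison had an exact two-sided permutation p of 0.333, the smallest that 2 libraries against 2 allow. In the chronic libraries 6 of 9 genes (H2-Aa, H2-Ab1, H2-Eb1, H2-DMa, H2-DMb1 and Cd74) had a lower ratio in all 5 CS libraries than in all 3 RA libraries, against 3.39% of tested genes. Their mean log2 ratios were lower by 0.92 (H2-Aa) to 1.29 (H2-Eb1), and the median change over the 9 genes was -1.10, against -0.81 over all genes. For each of the 6 the exact two-sided permutation p was 0.0357, the smallest that 5 against 3 allow, and 0.107 after Benjamini-Hochberg adjustment over the 18 tests of ratios. No gene could have passed, since these tests allow no p under 0.333 in the acute and none under 0.0357 in the chronic libraries. Ciita, Cd80 and Cd86 overlapped (exact permutation p = 0.536, 0.214 and 0.321).

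**Figure D4:**
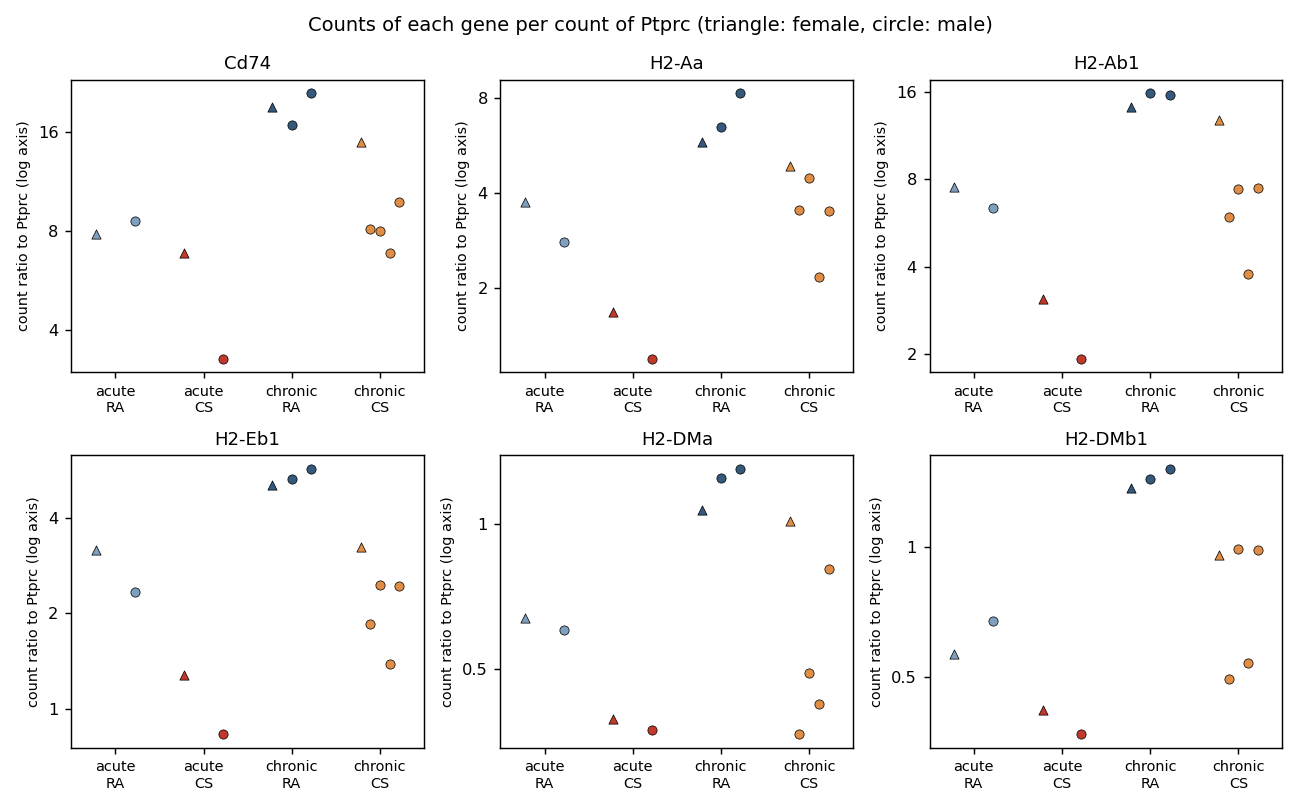
Counts of 6 class II genes per count of Ptprc in each of 12 libraries (vertical log axis, own scale per panel; triangles female, circles male). In each panel the chronic RA libraries are the highest group, every chronic CS library lies below them, and both acute CS libraries lie below both acute RA libraries.

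The proportions of the class II chains to each other varied less than their levels. H2-Eb1 was counted at 0.252 to 0.430 of H2-Ab1 and H2-Aa at 0.380 to 0.622 of H2-Ab1 over the 12 libraries. Cd74 was at 1.04 to 1.37 times H2-Ab1 in 9 of them, and at 2.20, 1.70 and 1.81 times in acute CS F, acute CS M and chronic CS M3, the libraries with the most Ptprc. The editor genes were also at their highest relative to H2-Ab1 in acute CS M, where H2-DMa was at 0.194 and H2-DMb1 at 0.191 of H2-Ab1, against 0.0751 to 0.0942 and 0.0749 to 0.106 in the RA libraries. Ciita varied far more against its target, from 0.00643 of H2-Ab1 in chronic CS M1 to 0.121 in chronic CS M2.

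Other genes of the pathway were read from 4 lists of 49 genes, of which 43 were tested. After acute CS 7 of the 43 were called higher and 2 lower, against 2.75% and 0.723% of all tested genes. Among the other class II chains and editors, H2-DMb2 was counted at 2.74 and 4.22 CPM in acute RA and 22.02 and 7.44 CPM in acute CS, and was the only one of 4 called by edgeR (log2 change 2.08 ± 0.48, adjusted p = 0.0376). Its call held in 7 of 19 alternatives, and its log2 change was 1.10 without acute CS F and 2.66 without acute CS M. H2-Oa and H2-Ob, which form an inhibitor of the editor best known in B cells, had positive values of 3.70 and 2.63 that did not pass in edgeR, and DESeq2 called H2-Ob (adjusted p = 0.0174). The pseudogene H2-Ea-ps was listed at 0 in all libraries but 1, at 0.136 CPM in chronic CS M4. In the chronic comparison H2-DMb2 had a log2 fold change of -1.28 (standard error 0.33, 8.87 to 10.9 CPM in chronic RA and 3.17 to 4.27 CPM in chronic CS), with an adjusted p of 0.265 in edgeR and 0.0242 in DESeq2.

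Of 18 genes of class II transcription and interferon gamma signalling 1 rose and 1 fell after acute CS, against 2.75% and 0.723% of all tested genes. Such small counts do not set this list apart from all genes. Spi1, the myeloid and B cell factor PU.1, rose from 6.07 and 5.05 CPM to 131 and 52.9 CPM (log2 change 4.05, adjusted p = 0.0140). Irf8, an interferon regulatory factor, fell from 220 and 234 CPM to 134 and 140 CPM (-0.73, adjusted p = 0.00857). Irf1 had 149 and 164 CPM and then 316 and 179 CPM (0.66, adjusted p = 0.144 in edgeR and 0.0452 in DESeq2), and the receptor and kinase genes Ifngr1 and Jak1 had values of 0.34 and -0.19 that did not pass. The median of this list was 0.11.

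Of 13 genes of endolysosomal processing 2 rose, against 2.75% of all tested genes. Ctss, the protease that makes the last cuts in the invariant chain in leukocytes, rose from 15.7 and 16.6 CPM to 440 and 326 CPM (log2 change 4.57, adjusted p = 0.0233). Ctsh, a cathepsin of lysosomes, rose from 69.4 and 74.0 CPM to 168 and 257 CPM (1.57, adjusted p = 0.00824). The abundant genes Ctsb, Ctsd and Lamp1 had values of -0.12, 0.06 and 0.36 and did not pass in edgeR, and DESeq2 called Lamp1 (adjusted p = 0.0437). Of 8 tested costimulatory genes among 12 listed, 3 rose and 1 fell, against 2.75% and 0.723% of all tested genes. Icam1, an adhesion ligand of T cells, rose from 58.3 and 65.1 CPM to 356 and 253 CPM (2.30, adjusted p = 0.00364), the ICOS ligand gene Icosl from 4.73 and 5.66 CPM to 19.8 and 27.1 CPM (2.17, adjusted p = 0.00846), and the leukocyte gene Cd48 from 3.16 and 2.76 CPM to 44.8 and 47.7 CPM (3.96, adjusted p = 0.0273). Cd40 fell from 89.2 and 94.8 CPM to 52.6 and 52.8 CPM (-0.80, adjusted p = 0.0331), and Cd274, the PD-L1 gene, had a value of 1.32 that did not pass in edgeR (adjusted p = 0.0880) and was called by DESeq2 (adjusted p = 0.00924). In the chronic comparison none of the 43 genes passed in edgeR. DESeq2 called Irf8 (-0.50), Ifngr2 (-0.48), Lgmn (-0.87) and H2-DMb2 (-1.24), against 2.91% of the genes it tested called in either direction.

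**Figure D5:**
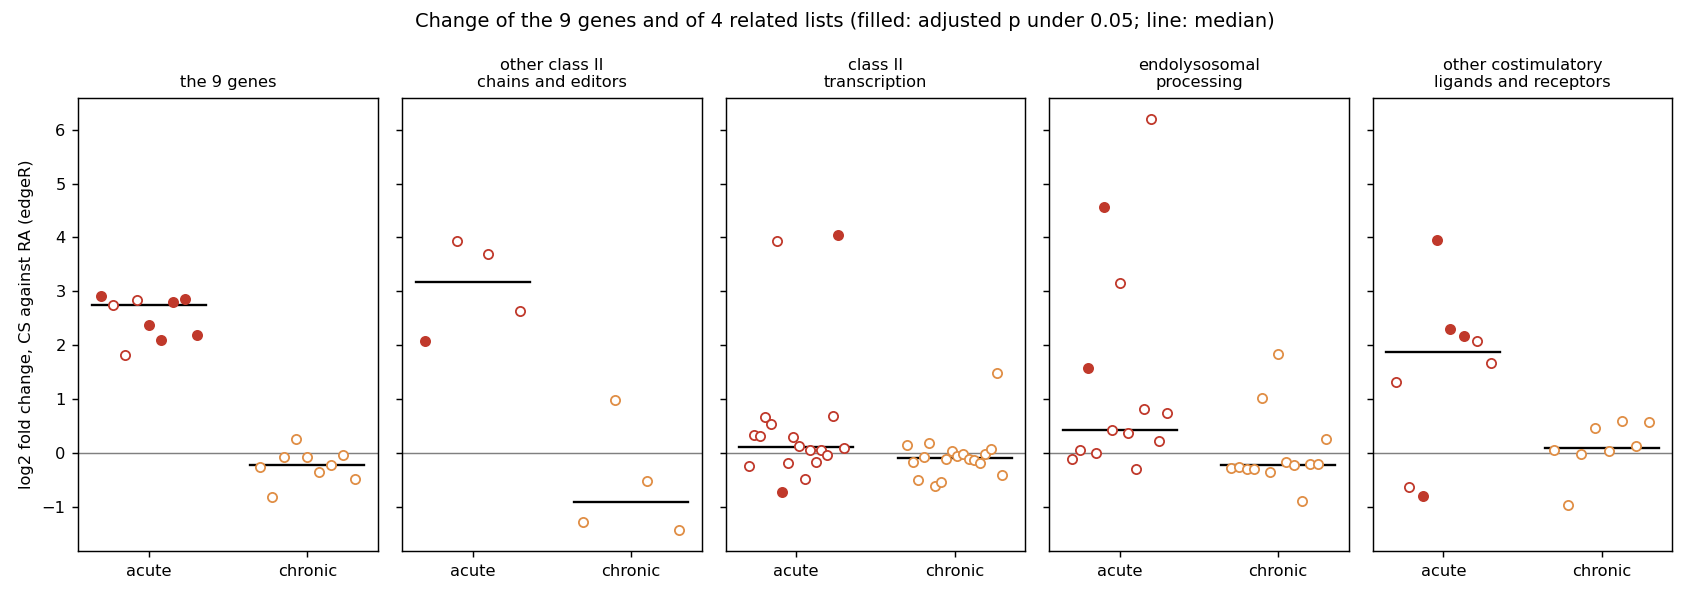
Fitted log2 fold change (edgeR) of the 9 genes and of the tested genes of 4 related lists after acute and chronic CS, with 1 point per gene, filled where the adjusted p was under 0.05, and a line at the median. The median of the 9 genes after acute CS (2.74) lies above those of the costimulatory (1.87), processing (0.43) and transcription (0.11) lists and below that of the other class II chains and editors (3.16), and no point is filled after chronic CS.

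The genes whose pattern was most like the 6 class II genes over the 12 libraries were sought among 9838 genes with a mean of at least 10 CPM, by the root mean square difference of centred log2 CPM from the mean of the 6. They were Rapgef3 (0.29), Impdh1 (0.29), Tmcc2 (0.31), Sort1 (0.33) and Ifi203 (0.34). Tmcc2 was counted at 61.9 and 55.9 CPM in acute RA and 622 and 176 CPM in acute CS, and at 71.4 to 147 CPM in the chronic libraries. By the same measure Ptprc lay at 0.74 and Ciita at 0.95.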

How the data were processed

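The libraries were made from polyadenylated RNA with a SMART-Seq v4 kit. The authors trimmed the reads with Skewer, checked them with FastQC 0.11.9 and Minion, aligned them to GRCm38 with STAR and deposited unnormalized read counts per Ensembl gene, 1 file per library. The counting mode was the gene counting of STAR, and its strand column and annotation are not given in the sources used here. Names, positions and exon lengths were taken from GENCODE M21, in which 147 identifiers were not found (at most 0.011% of a library).

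Libraries were grouped by the exposure and age in their labels. Counts were filtered by expression and fitted by group over all 12 libraries with edgeR 4.0.16 (R 4.3.3), with TMM factors, the quasi-likelihood F-test and a threshold of 0.05 on adjusted p. The study's methods name edgeR for scaling and no test of single genes. DESeq2 1.42.0 was an alternative, beside other scaling, filters, samples, sex as a covariate and leaving out libraries. Standard errors were derived from F and the fold change. For log2 CPM of a library a prior count of 2 was added. Ratios to Ptprc were tested with scipy 1.17.1 by exact permutation of libraries on the log2 ratio. Where nothing states separate cultures or animals, p-values measure the spread between these libraries, and no pair within a group agreed within sampling noise. On simulated counts of the same depths, 49 of 96 genes (51.0%) changed by 3 on the log2 scale and 23 of 97 (23.7%) changed by 1.5 were called in the acute comparison, and 47 of 91 (51.6%) and 29 of 94 (30.9%) in the chronic one.

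The floor of 3 counts covers counting error only, and intervals of 2 standard errors include the spread between libraries. The genes, the 4 pathway lists, the 9 cell type lists and the tests were chosen with earlier results of these data known. Besides the 9 genes and Ptprc, the called genes (at most 4) and the 3 with the highest FPKM of each pathway list were named, with 13 set cell type genes of which some are given here and the 5 genes of most like pattern. Zbtb46, Ccr7, Itgae, Cd209a, Vwf, Plvap, Mrc1, Ccl21a, Coro1a, Rac2, H2-Ea-ps, Ifngr2 and Lgmn were named after their values were seen.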

Additional observations from a re-analysis of the deposited data

Results flagged for a closer look

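Cd86 counts per count of Ptprc were 0.1415 in chronic CS F, far above the other 4 chronic CS libraries (0, 0.00911, 0.0276 and 0.0373), by 0.737 of the group's whole range. Chronic CS F had 30 counts of Cd86 and the lowest Ptprc count, 212. Such a gap arises by chance in about 1 of 20 groups, and 9 such groups of 5 libraries were examined for ratios.

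The change of H2-DMa differed between the 2 exposure times by a test of the difference. Its log2 fold change after acute CS exceeded that after chronic CS by 3.03 (edgeR, adjusted p = 0.0406), with both acute CS libraries above both acute RA libraries and overlapping chronic groups. The call held in 10 of 20 alternatives, with an adjusted p of up to 0.243, and was lost with sex as a covariate (0.0698), with the replicate block (0.151) and without any 1 of 8 libraries. Differences of 2.45 to 3.18 in H2-Aa, H2-Ab1, H2-Eb1, H2-DMb1 and Cd74 did not pass.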

How the results depend on the processing

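All values below come from edgeR unless another tool is named, and leaving out a library can leave an acute group with 1 library, which is then assumed to vary like the other groups. Of the 9 genes, 6 were called after acute CS. With only the 4 acute libraries fitted the count was 0, and leaving out single libraries gave 0 to 6. With a replicate block of libraries of the same time, sex and number, which drops chronic CS M3 and M4, it was 0. Same-numbered libraries did not deviate together (correlations of -0.042 to 0.069), so the numbers were not taken to pair them. The difference between acute and chronic change, called for 1 gene, was called for 6 without a filter on low counts, 6 with DESeq2, 0 with sex as a covariate, 0 with the replicate block and 0 to 5 when single libraries were left out. The pathway lists held 9 calls after acute CS, against 3 with only the acute libraries, 1 with the replicate block, 15 with DESeq2 and 0 to 12 when single libraries were left out, and 0 after chronic CS, against 4 with DESeq2. No call of the 9 genes after chronic CS or between the room air groups arose under any alternative run. The counts of lower ratios to Ptprc stayed at 9 (acute) and ran from 6 to 7 (chronic) without single libraries.

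Some chronic log2 fold changes, none called, changed sign, and the cause was not tested. With library size in place of TMM they were 0.01 for H2-Aa and 0.04 for H2-DMb1. With chronic CS M3 and M4 only they were 0.16 for H2-DMa, 0.21 for H2-DMb1, 0.01 for Cd74 and 0.42 for Cd86. With the replicate block that of Ciita was -0.59. Without single libraries they ran from -0.31 to 0.07 for H2-Aa, from -0.27 to 0.14 for H2-DMb1, from -0.40 to 0.62 for Ciita, from -1.32 to 0.28 for Cd80 and from -0.42 to 0.24 for Cd86. Depth limits Cd80 and Cd86, which were at 70 counts or fewer in every chronic library.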
